A study of Mus musculus with 84 samples.

Results

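A set of 9 genes of lipoprotein assembly, lipoprotein content and lipase control were followed in the liver of diet-induced obese (DIO) mice, and 2 of them, Angptl4 and Angptl8, also in epididymal white adipose tissue (eWAT). The members were taken by name, as the rows of the deposited tables whose Ensembl identifier carries the symbols Apoa1, Apoa4, Apoa5, Apob, Apoc3, Mttp, Lipc, Angptl4 or Angptl8. These are 9 of the 48794 gene identifiers listed, and each had 1 row and passed the filter on low values in liver. The mice were male C57BL/6J, were kept on a diet with 60% of its energy as fat and were 22 weeks old at the start. Each was injected under the skin once daily for 30 days with vehicle, with semaglutide, an agonist of the glucagon-like peptide-1 receptor, or with BI 456906, an agonist of both the glucagon receptor and the glucagon-like peptide-1 receptor. There were 7 groups, since BI 456906 had 4 dose levels (3, 10, 20 or 30 nmol/kg) and semaglutide had 2, of 20 or 100 nmol/kg. A group held 11 mice, of which 6 were sequenced per tissue, and every group shared the diet, the age and the daily injection. Diet-induced obesity on a single inbred background, in one sex, limits the mice as a model, and no lean group was analysed here.

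Triglyceride leaves the liver inside very low density lipoprotein. Apolipoprotein B is its structural backbone, and the microsomal triglyceride transfer protein, the product of Mttp, loads it with lipid. The smaller apolipoproteins A-I, A-IV, A-V and C-III ride on the particles or on high density lipoprotein and act on their formation or on the enzymes that empty them. In the circulation lipoprotein lipase releases fatty acids, angiopoietin-like proteins restrain that lipase according to feeding, and hepatic lipase, the product of Lipc, acts on particle remnants and on high density lipoprotein in the liver.

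Apoa1, Apoc3, Apoa4 and Apoa5 lie side by side on chromosome 9 (GRCm38, GENCODE M21). Apoa1 occupies 46228580 to 46230466 on the plus strand, Apoc3 46232933 to 46235636 on the minus strand, Apoa4 46240696 to 46243459 on the plus strand and Apoa5 46268633 to 46271919 on the plus strand, which together span 43340 bases. Apob lies on chromosome 12 from 7977648 to 8016835 on the plus strand, Mttp on chromosome 3 from 138089854 to 138144968 on the minus strand, and Lipc on chromosome 9 from 70798128 to 70952226 on the minus strand. Angptl4 lies on chromosome 17 from 33773750 to 33781830 on the minus strand. Angptl8 lies on chromosome 9 from 21835510 to 21837347 on the plus strand, inside an intron of Dock6, which is read from the other strand. Because Apoa4 and Apoa1 share a cluster and differed in response, the RefSeq promoters of both (GRCm38.p6, 250 bases before to 50 after the start, plus strand, 5′ to 3′) are shown. Capitals mark the match to CAAAGNNCA, letters bound by nuclear receptors of the HNF4 type.
Apoa4 promoter, chr9:46240594-46240893: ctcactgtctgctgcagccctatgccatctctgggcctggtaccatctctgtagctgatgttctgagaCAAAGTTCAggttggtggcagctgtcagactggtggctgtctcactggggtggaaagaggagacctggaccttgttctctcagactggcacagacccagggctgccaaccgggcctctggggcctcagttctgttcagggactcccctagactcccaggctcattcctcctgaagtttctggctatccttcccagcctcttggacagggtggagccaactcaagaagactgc
Apoa1 promoter, chr9:46228380-46228679: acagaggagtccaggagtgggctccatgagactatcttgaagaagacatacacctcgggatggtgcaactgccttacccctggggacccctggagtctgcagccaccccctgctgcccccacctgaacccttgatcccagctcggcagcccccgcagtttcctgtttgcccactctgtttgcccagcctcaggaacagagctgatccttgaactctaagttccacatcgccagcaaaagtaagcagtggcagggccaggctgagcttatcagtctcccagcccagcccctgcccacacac

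The match in Apoa4 begins 182 bases before the RefSeq start, which lies 148 bases inside the GENCODE gene, and Apoa1 holds no match. The letters CAAAGNNCA, read on both strands, occur in 6.36% of the 32851 RefSeq promoters of this length. Among the other members, the Apob promoter holds them on the reverse strand 103 bases before the start, as does 1 of 2 Lipc starts at 76 bases. The other 4 of 5 motifs were searched on both strands, with the sequences in view. TGACG, part of the cyclic AMP response element, is in 20.8% of the promoters and was found in Mttp alone among the members, reversed, 28 bases before its start. CACGTG, an E-box, is in 7.15% and was found at both Apoa5 starts. AGGTCA, a nuclear receptor half-site in 16.3%, was found at the Lipc start named above, where it shares bases with the CAAAGNNCA match, and TGTTTAC, a forkhead motif in 3.65%, at no member. The 2 members with no promoter entry are Apoc3 and Angptl4. A match describes letters and is not evidence of binding.

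Levels are given as TPM, the authors' transcript abundance, which is corrected for length and scaled to a fixed total per library, and differences as log2 fold changes from limma/voom fitted to all genes of a tissue, with the standard error and the false discovery rate (FDR) over all genes tested. A gene passed when the FDR was at most 0.05 and counted as called if, besides, its log2 fold change reached 1 in size. The libraries held 21676902 to 53869104 reads on genes in liver and 37573004 to 53996914 in eWAT, with the 42 libraries of each tissue at a median of 43179390 and 46475069. Hepatocyte markers named the liver, where Alb stood at 43236 to 75635 TPM and the adipocyte gene Adipoq at no more than 0.55 TPM, while Adipoq was at 740 to 3169 TPM in eWAT. The least abundant liver member, Angptl8, had 76 to 2984 reads per library. In eWAT Angptl8 had only 12 to 109 reads per library, against 14802 to 42296 for Angptl4. In bulk tissue, fewer cells of a type and less RNA per cell cannot be told apart.

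Apoa4 fell in liver under both compounds and was the one member whose fold change reached the size needed for a call. Its product, apolipoprotein A-IV, is carried on triglyceride-rich particles and high density lipoprotein and is made in the intestine and, in mice, also in the liver. The lowest, median and highest vehicle libraries were at 1973, 4073 and 5002 TPM. With BI 456906 the same 3 values were 1249, 2162 and 3900 TPM at 3 nmol/kg, 827, 1216 and 1646 TPM for 10 nmol/kg, 699, 1142 and 1290 TPM with 20 nmol/kg, and 556, 876 and 1899 TPM at 30 nmol/kg. With semaglutide they were 1339, 1832 and 2639 TPM with 20 nmol/kg and 1082, 1427 and 2931 TPM at 100 nmol/kg. Every library of BI 456906 at 10, 20 and 30 nmol/kg lay below every vehicle library, while the lowest dose and both semaglutide groups overlapped vehicle. The group means, 3665 ± 1302 TPM in vehicle (SD, n = 6), came down to 66.7%, 34.3%, 28.6% and 26.7% of vehicle across the 4 doses of BI 456906. They were 52.7% and 45.5% of vehicle at the lower and the higher dose of semaglutide.

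**Figure D1:**
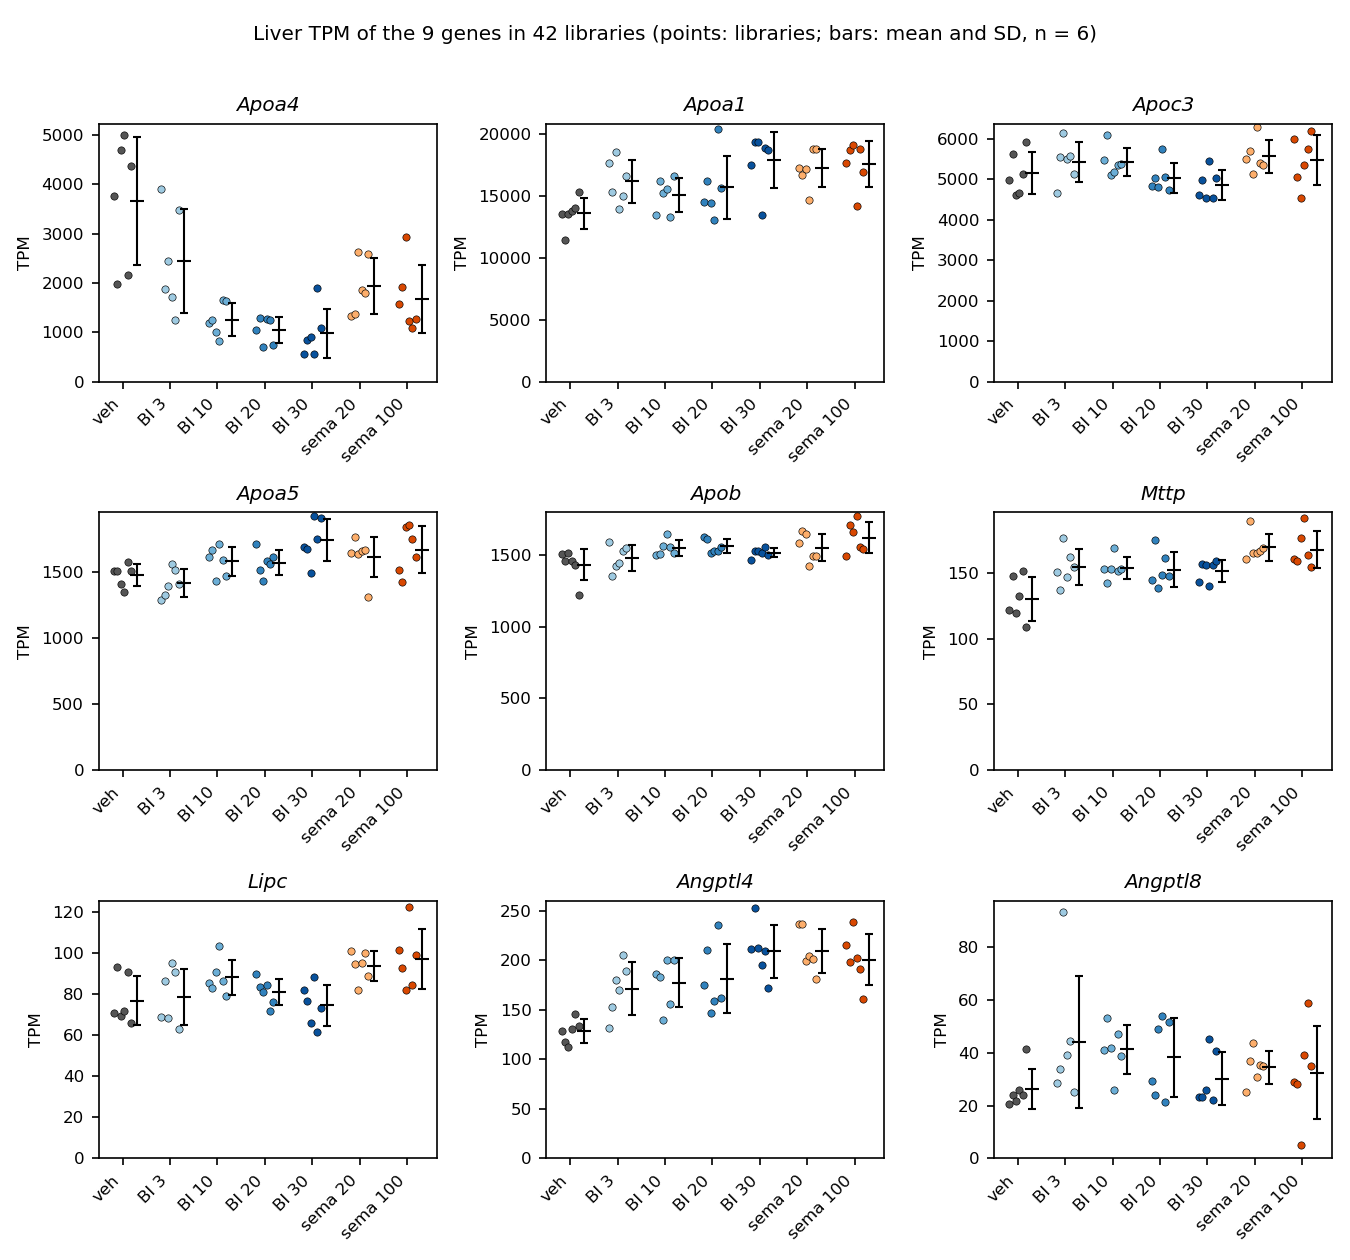
Liver TPM of the 9 genes, 1 panel per gene and 1 point per library, with the mean and SD of each of the 7 groups of 6 mice. Apoa4 shows the widest separation of groups, from 1973 to 5002 TPM in vehicle to 556 to 1899 TPM at 30 nmol/kg of BI 456906.

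The log2 fold change of Apoa4 was -0.65 ± 0.30 (SE) at 3 nmol/kg, which did not pass (limma FDR 0.137), and -1.61 ± 0.29 at 10 (FDR 3.83e-05), -1.86 ± 0.29 at 20 (FDR 2.09e-06) and -2.02 ± 0.29 at 30 nmol/kg (FDR 2.12e-07). For semaglutide it was -0.97 ± 0.30 at 20 nmol/kg (FDR 0.00673) and -1.20 ± 0.29 at 100 nmol/kg (FDR 0.000925). Apoa4 thus decreased with the dose of BI 456906, with a linear slope of -0.62 ± 0.08 log2 units per 10 nmol/kg from vehicle upwards (limma FDR 3.3e-08). Over the 4 dosed groups alone the slope was -0.46 ± 0.10 (FDR 0.000314). At the matched dose of 20 nmol/kg the log2 difference of BI 456906 from semaglutide was -0.88, with a 95% interval of -1.46 to -0.30, and did not pass (FDR 0.0914). The doses of 30 nmol/kg of BI 456906 and 100 nmol/kg of semaglutide are not matched, and the difference between them was -0.82, with an interval of -1.39 to -0.24 (FDR 0.0598). Both differences passed when libraries were weighted by quality, and the first also when the 2 groups were fitted alone. The second also passed in 3 of 42 refits without 1 library, among them that without BI 456906 30 nmol/kg replicate 71 (-1.01, FDR 0.018).

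Other transcripts moved with Apoa4. The antisense gene Gm10680 shares 632 exonic bases with it and went from a mean of 2.69 TPM in vehicle to 0.83 TPM at 30 nmol/kg of BI 456906 (log2 fold change -2.02, limma FDR 2.27e-06). The sources differ on whether the libraries kept the strand, so reads of the pair cannot be told apart, although Gm10680 stood far below Apoa4 in level. The intestinal list, of which 3 of 4 genes were found, summed to 164 to 211 TPM in vehicle livers and 59.7 to 83.6 TPM at 30 nmol/kg of BI 456906. That sum was nearly all Fabp2, the intestinal fatty acid-binding protein gene, while the defining intestinal genes Vil1 and Lct were at no more than 0.88 and 0.02 TPM. The summed level of 6 of 6 hepatocyte markers went the other way, from 59310 to 73812 TPM in vehicle to 83606 to 93192 TPM at 30 nmol/kg, and the part of this shift in the results for the members was not tested. The sum of 6 of 6 adipocyte markers in liver was 42.5 to 181 TPM in vehicle, 15.1 to 39.9 TPM at 10 nmol/kg and 9.33 to 97.6 TPM at 30 nmol/kg of BI 456906. In these livers the defining adipocyte genes Adipoq and Plin1 were at no more than 0.55 and 0.37 TPM, while Cidec, a lipid droplet gene of that list, reached 165 TPM.

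The 3 other genes of the cluster did not share this pattern. Apoa1 encodes the main protein of high density lipoprotein and was the sixth most abundant gene of the liver by mean TPM. Its lowest, median and highest libraries were at 11437, 13643 and 15278 TPM in vehicle, 13425, 18781 and 19349 TPM under 30 nmol/kg of BI 456906, and 14124, 18154 and 19090 TPM at 100 nmol/kg of semaglutide. The groups overlapped, and all but 1 library of these treated groups lay above the vehicle median. Apoa1 rose by a log2 fold change of 0.31 ± 0.11 at 30 nmol/kg of BI 456906 (limma FDR 0.0173) and of 0.29 ± 0.11 at 100 nmol/kg of semaglutide (FDR 0.0322). At 3, 10 and 20 nmol/kg of BI 456906 and 20 nmol/kg of semaglutide its values were 0.20, 0.03, 0.09 and 0.25, none of which passed. The last of these passed in 4 of 10 alternative settings and in 5 of 42 refits without 1 library. The dose slope of Apoa1, 0.07 ± 0.03 per 10 nmol/kg, did not pass (limma FDR 0.0715). It passed in 4 of 12 settings and in 6 of 42 refits. Without vehicle replicate 44 the value at 30 nmol/kg of BI 456906 was 0.26 (FDR 0.053), and the value for 100 nmol/kg of semaglutide no longer passed in 7 of 42 refits that left out 1 library (vehicle replicates 43 to 46 or semaglutide replicates 80, 81 and 83), at 0.24 without the library that moved it most.

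Apoc3 encodes apolipoprotein C-III, which restrains lipoprotein lipase and the uptake of remnants. It was at 4624, 5048 and 5922 TPM in vehicle and at 4531, 4799 and 5459 TPM at 30 nmol/kg of BI 456906, with ranges that overlapped throughout. No group passed against vehicle, the log2 fold changes running from -0.14 to 0.03. Its dose slope of -0.06 ± 0.02 per 10 nmol/kg passed (limma FDR 0.0401), but over the dosed groups alone it did not (-0.06 ± 0.03, FDR 0.0829), nor in 23 of 42 refits without 1 library. Apoa5 encodes apolipoprotein A-V, which helps lipoprotein lipase at the vessel wall. It was at 1355, 1511 and 1582 TPM in vehicle and at 1498, 1723 and 1925 TPM at 30 nmol/kg of BI 456906. No group passed for Apoa5, at 0.17 ± 0.08 for 30 nmol/kg (limma FDR 0.0655), while its slope of 0.06 ± 0.02 per 10 nmol/kg passed (FDR 0.0151). The value at 30 nmol/kg passed in 3 of 10 alternative settings and in 7 of 42 refits without 1 library. That at 100 nmol/kg of semaglutide, 0.11 (limma FDR 0.268), passed in 2 of 10 settings.

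**Figure D2:**
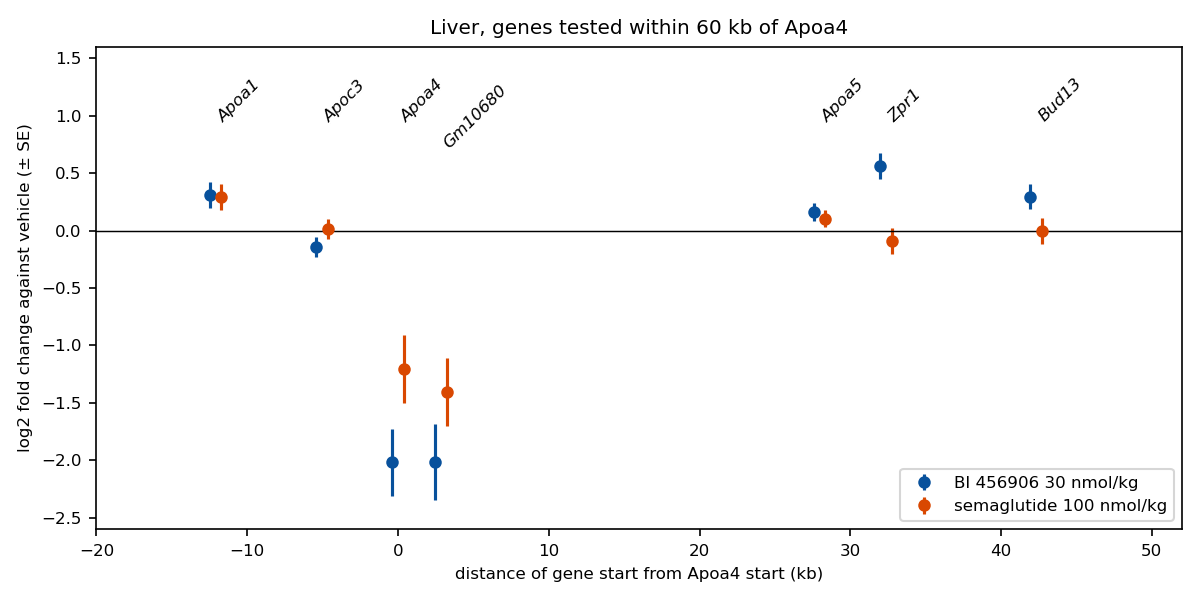
Log2 fold changes against vehicle (limma/voom, bars are SE) in liver for the 4 apolipoprotein genes of the cluster and the tested neighbours Gm10680, Zpr1 and Bud13, at the highest dose of each compound, against the distance of each gene's start from that of Apoa4 in kb. Apoa4 and its antisense neighbour Gm10680 stand at -2.02 for BI 456906 at 30 nmol/kg, and at that dose the remaining genes lie between -0.14 and 0.56.

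Within 250 kb of the cluster, 5 other genes were tested in liver, and at 30 nmol/kg of BI 456906 4 rose and 1, Gm10680, whose exons overlap those of Apoa4, fell. At that dose 58.8% of all liver genes tested passed. Sik3, a salt-inducible kinase, rose by 0.57, Zpr1, a zinc finger gene next to Apoa5, by 0.56, and Pafah1b2 by 0.42 on the log2 scale. With 100 nmol/kg of semaglutide, where 48.2% of all genes passed, 2 rose and 1 fell, and Zpr1 was at -0.09. Within the cluster, the fall of Apoa4 thus stood beside a small rise of Apoa1 and no passing change of Apoc3, whose end lies 5059 bases from Apoa4.

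Of the pair that builds very low density lipoprotein, Apob gave different answers in the 2 units. By length-normalized level it changed little, with lowest, median and highest libraries at 1223, 1461 and 1513 TPM in vehicle and 1354, 1486 and 1592, 1502, 1536 and 1652, 1516, 1543 and 1628, and 1466, 1523 and 1560 TPM at the 4 rising doses of BI 456906. Under semaglutide the values were 1426, 1540 and 1666 TPM with 20 nmol/kg and 1496, 1610 and 1773 TPM at 100 nmol/kg. Only the group given 20 nmol/kg of BI 456906 lay wholly above vehicle. In scaled reads, the deposited count unit, the mean went from 167418 ± 13359 in vehicle (SD, n = 6) to 250061 ± 28341 at 30 nmol/kg of BI 456906 and 236179 ± 31098 at 100 nmol/kg of semaglutide. By limma/voom on those reads the log2 fold change was 0.16 ± 0.09 at 3 nmol/kg (FDR 0.226), 0.40 at 10 (FDR 0.000305), 0.49 at 20 (FDR 1.38e-05) and 0.57 ± 0.09 at 30 nmol/kg (FDR 5.64e-07). For semaglutide it was 0.41 (FDR 0.000159) and 0.48 (FDR 1.71e-05).

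Apob was also fitted by limma on log2(TPM + 1), without voom or TMM factors. It was then at 0.09 for 30 nmol/kg of BI 456906 (limma FDR 0.124) and 0.18 for 100 nmol/kg of semaglutide (FDR 0.00212). On that scale the groups given 10 and 30 nmol/kg of BI 456906 no longer passed, nor did the slope (0.03, FDR 0.0886), while 20 nmol/kg of either compound still did. The reads that stood behind each TPM unit of Apob rose to 1.41 times vehicle at 30 nmol/kg and 1.25 times at 100 nmol/kg of semaglutide, where the other members were between 0.87 and 0.97 times. Of 6008 liver genes with at least 10 TPM in vehicle, 59 (0.982%) had a ratio as high as Apob or higher at 30 nmol/kg. Apob has 4 annotated transcripts between 1118 and 13934 bases long, and the tables do not divide reads among them. The part of transcript length in this gap was not tested.

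**Figure D3:**
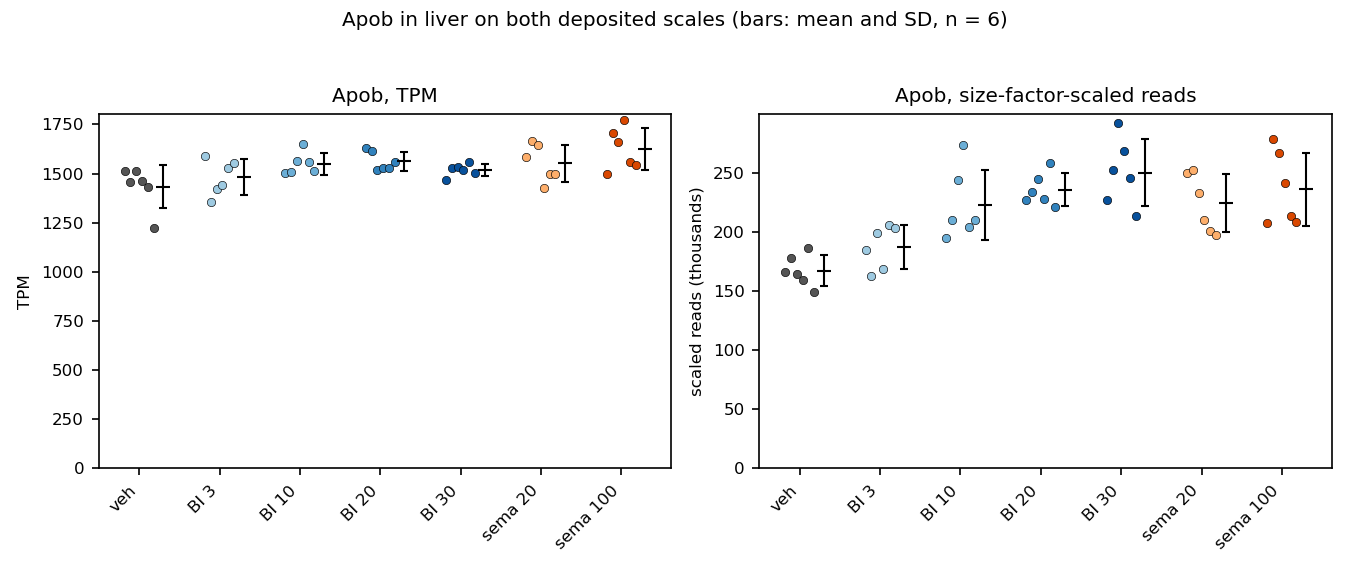
Liver Apob per library in both deposited units, TPM in one panel and scaled reads in the other, for the 7 groups, with the mean and SD. Scaled reads climb from 167418 to 250061 on average between vehicle and 30 nmol/kg of BI 456906, while mean TPM goes from 1433 to 1518.

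Mttp was at 109, 127 and 151 TPM in vehicle, the lowest median of the 7 groups. The lowest, median and highest values were 161, 166 and 189 TPM with 20 nmol/kg and 155, 162 and 192 TPM at 100 nmol/kg of semaglutide, above every vehicle library. With 30 nmol/kg of BI 456906 they were 140, 156 and 159 TPM, and all 4 doses of this compound overlapped vehicle. Mttp rose under semaglutide, by a log2 fold change of 0.28 ± 0.08 at 20 nmol/kg (limma FDR 0.00246) and 0.29 ± 0.08 at 100 nmol/kg (FDR 0.00194). For BI 456906 the values of 0.19, 0.12, 0.11 and 0.14 did not pass, but the difference between the compounds did not pass either, at -0.17 for 20 against 20 nmol/kg (FDR 0.281) and -0.15 for 30 against 100 nmol/kg (FDR 0.217). Without vehicle replicate 47 every dose from 10 nmol/kg upwards passed as well, as did all 4 doses in the fit on log2(TPM + 1).

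Lipc, which encodes hepatic lipase, did not pass against vehicle in any group. Its lowest, median and highest libraries were at 65.9, 71.2 and 93.1 TPM in vehicle, 61.8, 75.1 and 88.3 TPM under 30 nmol/kg of BI 456906, and 82, 96.0 and 123 TPM at 100 nmol/kg of semaglutide. The last 2 groups overlapped in part, the highest BI 456906 libraries reaching into the lowest semaglutide libraries. The difference between these unmatched doses, -0.38 with an interval of -0.60 to -0.17, was the only one of 18 differences between the compounds (2 pairs of doses, 9 genes) that passed (limma FDR 0.0187). It no longer passed, each left out in turn, without BI 456906 30 nmol/kg replicate 69 or 71 or semaglutide 100 nmol/kg replicate 79 or 82. At the matched dose of 20 nmol/kg the difference was -0.21 ± 0.11 (FDR 0.384). Against vehicle, Lipc stood at 0.25 for 100 nmol/kg of semaglutide, with an interval of 0.03 to 0.46 (limma FDR 0.0571). This value passed in 3 of 10 alternative settings and in 8 of 42 refits without 1 library. That for 20 nmol/kg of semaglutide, 0.19 (limma FDR 0.158), passed in 3 of 10 settings.

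Of the angiopoietin-like genes in liver, Angptl4 passed in every treated group and Angptl8 in none. The wide intervals of Angptl8 held the Angptl4 value in every treated group, and a difference between these genes was not tested. Angptl4 encodes a secreted inhibitor of lipoprotein lipase that is induced by fasting and by fatty acids. It was at 112, 130 and 146 TPM in vehicle. With BI 456906 it was at 132, 175 and 206 TPM at 3 nmol/kg, 140, 185 and 200 TPM for 10 nmol/kg, 147, 169 and 236 TPM with 20 nmol/kg, and 172, 210 and 253 TPM at 30 nmol/kg. With semaglutide it was at 181, 203 and 237 TPM with 20 nmol/kg and 161, 200 and 238 TPM at 100 nmol/kg. The groups given 20 or 30 nmol/kg of BI 456906 and both semaglutide groups lay wholly above vehicle. Angptl4 rose in all 6 treated groups, with log2 fold changes of 0.37 ± 0.13 (limma FDR 0.0479), 0.37 ± 0.13 (FDR 0.0191), 0.40 ± 0.13 (FDR 0.00926) and 0.64 ± 0.13 (FDR 5.19e-05) along the doses of BI 456906. For semaglutide they were 0.63 ± 0.13 (FDR 0.000123) and 0.59 ± 0.13 (FDR 0.000264). The slope on dose was 0.16 ± 0.04 per 10 nmol/kg (FDR 0.000393), and 0.10 ± 0.04 over the dosed groups alone (FDR 0.0852). The rise at 3 nmol/kg did not pass in 21 of 42 refits without 1 library (0.32 to 0.46 over all of them), and that at 10 nmol/kg did not without vehicle replicate 45 (0.33, FDR 0.0535). At 20 nmol/kg the difference between the compounds was -0.23, with an interval of -0.49 to 0.04 (FDR 0.442).

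Angptl8 encodes a protein that acts on lipoprotein lipase and is induced by feeding and insulin. It spread widely within groups, at 20.4, 23.9 and 41.4 TPM in vehicle, 25.2, 36.4 and 93.0 TPM with 3 nmol/kg and 22.2, 24.7 and 45.1 TPM at 30 nmol/kg of BI 456906. With 100 nmol/kg of semaglutide the values were 5.01, 31.9 and 58.7 TPM. Every treated group overlapped vehicle, and none passed, at log2 fold changes of -0.02 to 0.59 with standard errors of 0.37 to 0.38. The host gene Dock6 had a median of 5.46 TPM in liver and shares no exonic base with Angptl8.

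**Figure D4:**
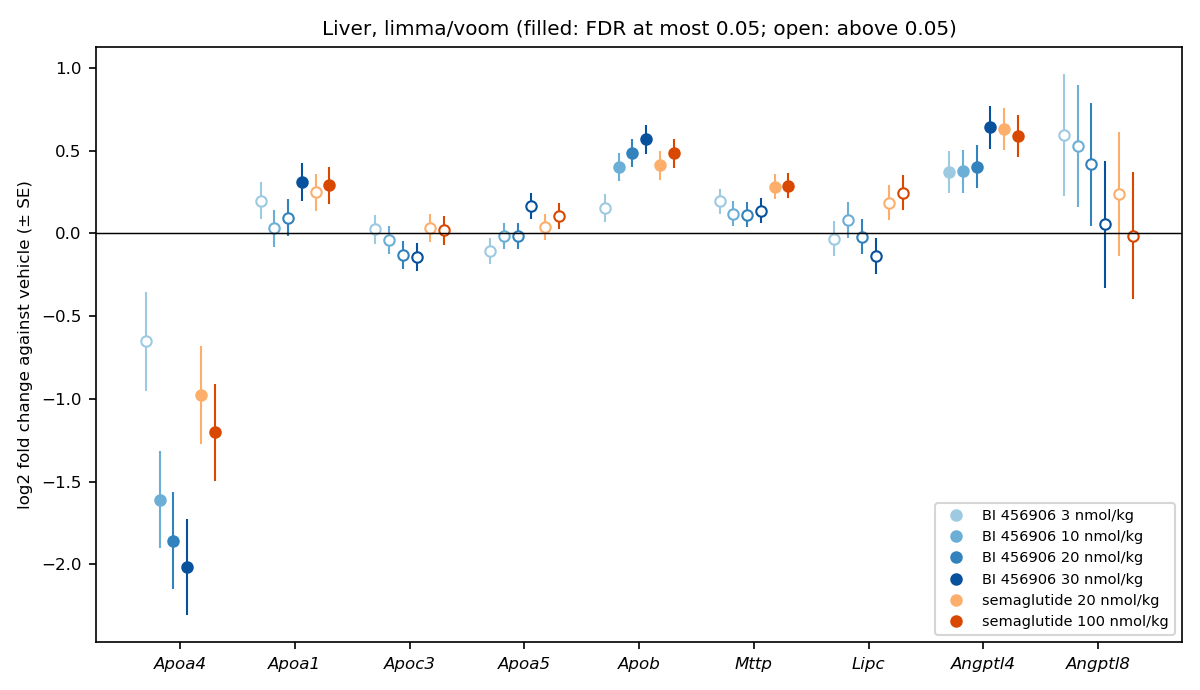
Log2 fold changes against vehicle in liver for the 9 genes in the 6 treated groups (limma/voom, bars are SE, filled points passed). Apoa4 runs from -0.65 to -2.02 with the dose of BI 456906, Angptl4 lies between 0.37 and 0.64 in all groups, and Apoc3 lies between -0.14 and 0.03.

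Set against all 15964 liver genes tested, the share of members that passed was near or below that of all genes in most comparisons. At 3 nmol/kg of BI 456906 1 of 9 passed (13.4% of all genes), at 10 nmol/kg 3 (37.5%), at 20 nmol/kg 3 (45.9%) and at 30 nmol/kg 4 (58.8%). With semaglutide 4 of 9 passed at 20 nmol/kg (46.5%) and 5 at 100 nmol/kg (48.2%), and 5 of 9 passed for the slope on dose (58.9%). The share with a fold change of the size needed for a call was 0 of 9 at 3 nmol/kg (0.783% of all genes), and Apoa4 alone at 10 (4.07%), 20 (6.69%) and 30 nmol/kg (12.9%), 0 of 9 at 20 nmol/kg (6.08%) and Apoa4 alone at 100 nmol/kg (6.75%) of semaglutide. Between the compounds 0 of 9 passed at 20 against 20 nmol/kg (2.42%) and 1 at 30 against 100 nmol/kg (9.75%). The median log2 fold change of the 9 was 0.14 at 30 nmol/kg of BI 456906 and 0.25 at 100 nmol/kg of semaglutide, against -0.03 and -0.02 over all genes. When the 7 groups were ordered by mean TPM, the ranges of neighbouring groups overlapped in 6 of 6 pairs for every member, so that only groups farther apart in that order separate.

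In eWAT the angiopoietin-like genes went down where they moved, and Angptl4 was more abundant there than in liver. Its lowest, median and highest libraries were at 465, 517 and 816 TPM in vehicle. With BI 456906 they were at 441, 514 and 578 TPM at 3 nmol/kg, 309, 371 and 618 TPM for 10 nmol/kg, 440, 487 and 582 TPM with 20 nmol/kg, and 358, 502 and 549 TPM at 30 nmol/kg. With semaglutide they were at 362, 447 and 501 TPM with 20 nmol/kg and 330, 405 and 489 TPM at 100 nmol/kg. All 6 treated groups overlapped vehicle. Angptl4 fell at 100 nmol/kg of semaglutide, by a log2 fold change of -0.48 ± 0.14 (limma FDR 0.0165), and no other group passed. The values were -0.17, -0.46, -0.26 and -0.27 along the doses of BI 456906 (FDR 0.764, 0.116, 0.296 and 0.162) and -0.39 at 20 nmol/kg of semaglutide (FDR 0.0805). The fall at 100 nmol/kg of semaglutide no longer passed without vehicle replicate 5 (-0.37) or 6 (-0.39) or semaglutide 100 nmol/kg replicate 41 (-0.42). Conversely, the value at 10 nmol/kg of BI 456906 passed in 2 of 12 alternative settings and in 2 of 42 refits without 1 library. That at 20 nmol/kg of semaglutide passed in 3 of 12 settings.

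Angptl8 was near the lower end of detection in eWAT, at 1.37, 3.01 and 4.89 TPM in vehicle, 0.83, 1.74 and 2.40 TPM under 30 nmol/kg of BI 456906, and 0.54, 1.28 and 1.63 TPM at 100 nmol/kg of semaglutide. The middle of every treated group lay below that of vehicle, and all ranges overlapped it. Angptl8 fell by log2 fold changes of -1.19 ± 0.35 at 20 nmol/kg (limma FDR 0.0406) and -1.06 ± 0.34 at 30 nmol/kg of BI 456906 (FDR 0.0222), and of -1.54 ± 0.36 (FDR 0.00755) and -1.36 ± 0.35 (FDR 0.00819) at the lower and higher dose of semaglutide. The values of -0.71 at 3 and -1.27 at 10 nmol/kg of BI 456906 did not pass (FDR 0.535 and 0.083). At 20 nmol/kg of BI 456906 it no longer passed in 23 of 42 refits without 1 library (-1.39 to -1.0 over all of them). At 30 nmol/kg it no longer passed without vehicle replicate 2 or 6 or BI 456906 replicate 26, 28 or 29, the value nearest 0 being -0.88. Its host gene Dock6 was more abundant here, at a median of 19.5 TPM, and without strand its intronic reads cannot be told apart from those of Angptl8.

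Liver transcripts were present in the eWAT libraries and moved with the groups. Alb was at 9.87, 917 and 3680 TPM in vehicle, 12.1, 59.4 and 548 TPM under 30 nmol/kg of BI 456906, and 3.47, 47.2 and 747 TPM at 100 nmol/kg of semaglutide, and all 6 hepatocyte markers together summed to 17.9, 1304 and 5078 TPM in vehicle. Scaled by the liver ratio of Angptl8 to Alb, such transcripts would give a mean of 0.677 of the 3.33 TPM of Angptl8 in vehicle, and 0.0682 of 1.64 TPM at 30 nmol/kg. For Angptl4 they would give 3.32 of 589 TPM in vehicle. With the level of Alb as a covariate, Angptl8 in eWAT was at -0.51 for 30 nmol/kg (limma FDR 0.26) and -0.74 for 100 nmol/kg of semaglutide (FDR 0.17), and none of its 4 passing groups passed any longer. Without the 5 libraries above 1000 TPM of Alb, 3 of them vehicle, it was at -0.87 for 30 nmol/kg of BI 456906 (FDR 0.11) and -1.18 for 100 nmol/kg of semaglutide (FDR 0.0292), and Angptl4 was at -0.50 for 30 nmol/kg of BI 456906 (FDR 0.0355). With Alb as a covariate Angptl4 was at -0.44 for 100 nmol/kg of semaglutide (FDR 0.0793), and its one passing group no longer passed.

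**Figure D5:**
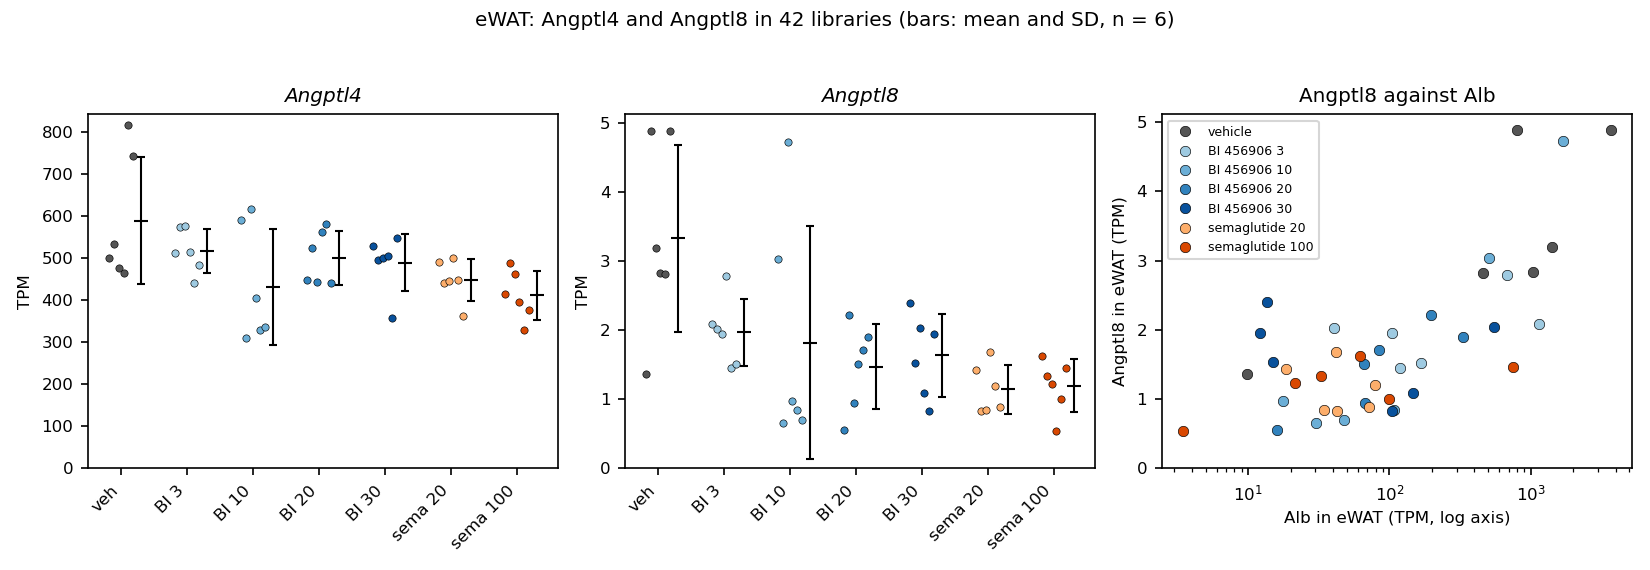
Angptl4 and Angptl8 in eWAT, in TPM per library for the 7 groups with mean and SD, and a further panel of Angptl8 against Alb (log axis) in the same libraries. Angptl8 runs from 1.37 to 4.89 TPM in vehicle and 0.54 to 1.63 TPM at 100 nmol/kg of semaglutide, and Alb reaches 3680 TPM in vehicle.

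In eWAT the number of the 2 genes that passed was 0 at 3 (0.00539% of the 18536 genes tested) and 10 nmol/kg (0.513%), 1 at 20 (4.27%) and 30 nmol/kg of BI 456906 (23.9%), 1 at 20 nmol/kg (6.33%) and 2 at 100 nmol/kg of semaglutide (14.9%), and 1 for the slope (29.5%). With the size needed for a call the numbers were 0 (0%), 0 (0.232%), 1 (1.49%), 1 (6.34%), 1 (2.24%) and 1 (4.13%) in the same order of groups. The difference between the tissues was tested as an interaction over 15297 genes. For Angptl4 it was 0.80 ± 0.19 at 30 nmol/kg of BI 456906 (limma FDR 0.000381) and 1.02 ± 0.19 at 100 nmol/kg of semaglutide (FDR 2.38e-05), liver minus eWAT, and it also passed at 10 and 20 nmol/kg of BI 456906 and at 20 nmol/kg of semaglutide. Thus the rise of Angptl4 in liver relative to eWAT passed in 5 of 6 treated groups. At 3 nmol/kg of BI 456906 the difference was 0.51 ± 0.19 and did not pass (limma FDR 0.113). For Angptl8 the differences of 1.01 ± 0.81 and 1.29 ± 0.84 did not pass. Of the 2 genes, 1 passed at 30 nmol/kg (45.9% of all genes) and 1 at 100 nmol/kg of semaglutide (33.9%).

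The partners of the members in lipid transport were described through a list of 67 genes, 66 of them tested in liver. At 30 nmol/kg of BI 456906 21 rose, 25 fell and 20 did not pass (58.8% of all genes passed), and at 100 nmol/kg of semaglutide 19 rose, 18 fell and 29 did not pass (48.2% of all genes passed). Among 10 lipases and plasma remodelling genes 3 rose and 6 fell at 30 nmol/kg of BI 456906. Lpl, the gene of lipoprotein lipase itself, fell from 7.81 to 2.33 TPM (log2 fold change -1.73, limma FDR 5.33e-06), and Lmf1, which matures the lipase, fell by 0.53. Lipg, the gene of endothelial lipase, rose from 5.36 to 17.9 TPM (1.69, FDR 1.33e-06), and across the 42 liver libraries its level followed that of Angptl4 most closely of the 15839 genes compared (Pearson r = 0.89, a description, since libraries of a group share their treatment).

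Of 10 further apolipoprotein genes 1 rose and 3 fell at 30 nmol/kg of BI 456906, where 58.8% of all genes passed, among them Apoa2, a second protein of high density lipoprotein (-0.61), and Apoe, the ligand of remnant receptors (-0.59). Of 10 genes of assembly and secretion 1 rose and 4 fell, with Cideb, which enlarges nascent particles, at -0.60. The regulators gave 7 up and 3 down of 16, led by Ppargc1a, a coactivator of fasting genes, which rose from 1.53 to 6.98 TPM (1.92, limma FDR 2.46e-13) and at 100 nmol/kg of semaglutide by 1.19. Between 30 nmol/kg of BI 456906 and 100 nmol/kg of semaglutide 3 of the 66 were higher and 13 lower, where 9.75% of all genes passed. Sdc1, a remnant receptor, was higher by 0.69 and Pltp, the phospholipid transfer protein gene, lower by 1.27 on the log2 scale. In eWAT Lpl, which adipocytes make for the vessel wall, fell from 3060 to 1846 TPM at 30 nmol/kg of BI 456906 (-0.70, FDR 1.1e-06) and to 2143 TPM at 100 nmol/kg of semaglutide (-0.48).

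By likeness of their levels over the 42 liver libraries (Pearson r of log2(TPM + 1), given as a description), the genes nearest to Apoa4 were Cox19 (r = 0.91) and Gm10680 (0.91). The exons of Gm10680 overlap those of Apoa4, and without strand the reads of the pair cannot be told apart. The nearest to Mttp was Ibtk (0.89), to Lipc Clec2d (0.84), to Apob Cdc42bpa (0.83), to Apoa1 Npm3 (0.80), to Apoa5 Abhd6 (0.76), to Apoc3 Agpat2 (0.75) and to Angptl8 Anks4b (0.66). In eWAT Angptl4 was nearest to Wwtr1 (0.95) and Angptl8 to Cth (0.90) and Apoc1 (0.90). The 9 members were left out of the genes compared, so likeness between members was not examined.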

How the data were processed

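RNA sequencing of 84 libraries was used, 42 of liver and 42 of eWAT, in 7 groups of 6 per tissue. The authors' count table holds a scaled signal, read counts divided by 1 factor per library as deposited, since dividing by the smallest step of a library gave whole reads for 100% of its values above 0, and the authors' second table holds TPM. Per the labels' processing notes STAR 2.5.2b, RSEM 1.3.0, featureCounts 1.5.1 and FastQC 0.11.5 were used on mm10/GRCm38, and which tool made which table is not given in the sources used here. The study's methods describe directional, paired-end libraries of poly(A) RNA, while the labels describe a kit that does not mark strand, read from one end, so strand is uncertain. Each library was taken as 1 mouse, and the labels tie no liver library to an eWAT library.

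Scaled counts were tested with limma/voom under R 4.3.3 (package limma 3.58.1, with edgeR 4.0.16), the test the study's methods name for mapped counts, 1 fit per tissue, with TMM factors, filterByExpr and a pseudocount of 0.5, over 15964 genes in liver and 18536 in eWAT, with Benjamini-Hochberg adjustment. Intervals are 95%. Tissues were compared by an interaction over the 15297 genes kept in both. Named partners were the 5 genes of lowest FDR per comparison and a fixed set of partners, of which 1 is not reported here, and likeness took the 2 genes of highest r. The members, lists and tests were chosen with earlier results of these data known. The procedure was tested on simulated data. Alternatives were other factors (RLE, or the library size), leaving out the filter, a minimum of 10 counts per library, edgeR and DESeq2 1.42.0 on recovered reads, limma on log2(TPM + 1) and log2(TPM + 0.1), quality weights, the groups of a contrast alone and each library left out in turn. Columns of other samples were 0.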

Additional observations from a re-analysis of the deposited data

Results flagged for a closer look

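In 9 of 77 groups of 6 libraries 1 library stood apart from the others by Dixon's 95% limit, where chance gives about 1 in 20. In liver, Apoa1 was at 13425 TPM in BI 456906 30 nmol/kg replicate 70, the next library being at 17470 TPM. Apoc3 was at 6092 TPM in BI 456906 10 nmol/kg replicate 56 (next 5465) and at 5753 TPM in BI 456906 20 nmol/kg replicate 64 (next 5054). Apoa5 was at 1316 TPM in semaglutide 20 nmol/kg replicate 78 (next 1636), and Mttp was at 189 TPM in semaglutide 20 nmol/kg replicate 74 (next 169). Vehicle replicate 48 was apart in 2 genes, at 1223 TPM for Apob (next 1432) and 41.4 TPM for Angptl8 (next 25.7). Angptl8 was at 93.0 TPM in BI 456906 3 nmol/kg replicate 51 (next 44.5). In eWAT, Angptl4 was at 358 TPM in BI 456906 30 nmol/kg replicate 29 (next 497).

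The response of Angptl4 differed between the tissues by the interaction test, by 0.80 on the log2 scale at 30 nmol/kg of BI 456906 (limma FDR 0.000381) and by 1.02 at 100 nmol/kg of semaglutide (FDR 2.38e-05), liver minus eWAT.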

How the results depend on the processing

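For 89 values of single members, 924 refits with other settings kept direction and side of the FDR threshold of 0.05 in 822 cases, no longer passed in 23, newly passed in 44 and changed sign in 35. In 3738 refits without 1 library the numbers were 3574, 80, 39 and 45. Both tallies leave out Angptl4 and Angptl8 in eWAT at 30 nmol/kg of BI 456906, at 100 nmol/kg of semaglutide and for the slope. The differences between tissues are also outside them. Passes lost or gained by these values come on top of the tallies and are given singly. The changes of sign touched 17 values, none of which passed before or after. On log2(TPM + 1) and log2(TPM + 0.1) alike, Apoc3 at 10 nmol/kg of BI 456906 became 0.078, Apoa5 at 10 and 20 nmol/kg 0.096 and 0.087, Lipc at 3 nmol/kg 0.029 and at 20 nmol/kg 0.087 and 0.088, and Apob for 30 against 100 nmol/kg -0.095. Quality weights gave 0.052, 0.030, 0.039, 0.13 and 0.094 for the first 5 of these. Library size alone turned Apoc3 at 3 nmol/kg (-0.00078) and at 100 nmol/kg of semaglutide (-0.028), the Mttp slope (-0.0014, and -0.018 without vehicle) and Angptl8 at 30 nmol/kg (-0.018). Apoa5 was 0.0024 at 10 nmol/kg without the filter and 0.0026 at 20 nmol/kg with the groups of the contrast alone. Angptl8 in liver at 100 nmol/kg of semaglutide was 0.27 with DESeq2, 0.28 with edgeR, 0.065 and 0.047 on the 2 TPM scales, 0.0016 without the filter, 0.00056 with the groups of the contrast alone and 0.46 with quality weights. Its value for 30 against 100 nmol/kg was -0.19 with DESeq2, -0.20 with edgeR and -0.25 with quality weights, which also turned its slope (0.00095). The number of the 9 liver members that passed at 3 nmol/kg of BI 456906, 1, became 2 in both fits on TPM, 3 with quality weights, and 0 without the filter or with the groups of the contrast alone. Quality weights gave 5 in place of 3 at 10 nmol/kg, 1 in place of 0 at 20 against 20 nmol/kg (as did the groups of the contrast alone) and 2 in place of 1 at 30 against 100 nmol/kg. Without vehicle the slope passed for 3 members in place of 5. In eWAT, Angptl4 at 30 nmol/kg was -0.50 (FDR 0.035) without the libraries above 1000 TPM of Alb, and at 100 nmol/kg of semaglutide -0.44 with Alb as a covariate and -0.49 with the groups of the contrast alone, neither of which passed. Angptl8 in eWAT no longer passed at 30 nmol/kg on log2(TPM + 0.1) (-0.95), with Alb as a covariate (-0.51) and without the Alb-rich libraries (-0.87), and at 100 nmol/kg of semaglutide with Alb as a covariate (-0.74). Its slope of -0.28 no longer passed with library size alone (-0.26), on log2(TPM + 0.1) (-0.26), with Alb as a covariate (-0.12), without the filter (-0.27), with the groups of the contrast alone (-0.27) and without the Alb-rich libraries (-0.22). Its difference between tissues at 100 nmol/kg of semaglutide passed with DESeq2 (1.65), edgeR (1.62) and log2(TPM + 0.1) (1.40). The 2 Alb alternatives were chosen after seeing the data, and the cause of these changes was not tested.

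Signs also turned when single libraries were left out. For Apoa1 the ranges were -0.020 to 0.11 at 10 nmol/kg of BI 456906 and -0.057 to 0.11 for 30 against 100 nmol/kg. For Apoc3 they were -0.020 to 0.10 and -0.081 to 0.042 at 3 and 10 nmol/kg, and -0.0057 to 0.12 and -0.022 to 0.10 for semaglutide. For Apoa5 they were -0.053 to 0.032 and -0.053 to 0.033 at 10 and 20 nmol/kg, for Lipc -0.090 to 0.037 and -0.056 to 0.054 at 3 and 20 nmol/kg, and for Angptl4 -0.019 to 0.12 for 30 against 100 nmol/kg. For Angptl8 in liver they were -0.11 to 0.24 at 30 nmol/kg, -0.27 to 0.50 at 100 nmol/kg of semaglutide and -0.44 to 0.33 between these.

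Leaving out each library in turn gave 0 to 2 passing members at 3, 2 to 4 at 10, 3 to 4 at 20 and 3 to 6 at 30 nmol/kg of BI 456906, 4 to 5 and 4 to 6 for semaglutide, 4 to 6 for the slope, 0 to 0 for the matched doses and 0 to 2 for 30 against 100 nmol/kg. In eWAT the ranges at 100 nmol/kg of semaglutide were -0.56 to -0.37 for Angptl4 and -1.58 to -1.17 for Angptl8, which was at -1.24 to -0.88 for 30 nmol/kg and at -0.31 to -0.23 for the slope, no longer passing in 5 and 13 refits. The interaction was not refitted without single libraries. No paired analysis was possible because the library numbers differ in every group. Among the members, depth limits Angptl8 in eWAT alone, with 12 to 109 reads.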

Other observations

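Apoc2, which encodes the cofactor that lipoprotein lipase needs, changed sign with the unit in liver. Its mean went from 902 ± 184 TPM (SD, n = 6) for vehicle mice to 441 ± 27.7 TPM under 30 nmol/kg of BI 456906 and 500 ± 45 TPM under 100 nmol/kg of semaglutide, and in the fit on log2(TPM + 1) the changes were -1.0 (limma FDR 5.34e-09) and -0.83 (FDR 6.99e-07). On the scaled reads they were 0.15 (FDR 0.396) and 0.51 (FDR 0.00369). Apoc2 had only 93 to 310 reads per library in liver, at 411 to 1093 TPM. The reads behind each TPM unit were 2.31 and 2.63 times those in vehicle, against 1.41 and 1.25 for Apob. How reads were assigned to transcripts was not tested.

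Of the 7 members not described in eWAT, 3, chosen after their values were seen, are set beside Alb. The mean of Apoa4 was 96.9 TPM in vehicle eWAT, where its liver ratio to Alb would give 94.7 TPM, and 3.54 TPM at 30 nmol/kg of BI 456906, where it would give 2.22 TPM. For Apoa1 the vehicle mean was 405.5 TPM, beside 351 TPM by the ratio. Mttp did not follow Alb in the same way, at 5.13 TPM beside 3.37 TPM in vehicle, 2.14 beside 0.344 TPM at 30 nmol/kg of BI 456906 and 1.82 beside 0.152 TPM at 20 nmol/kg of semaglutide.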
